A study of Mus musculus with 8 samples.

Results

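CHD4 was mapped in the 3134 line, an established murine mammary epithelial cell line grown without treatment. CHD4 is the nucleosome-moving ATPase of the NuRD complex, which joins chromatin remodelling to histone deacetylation through partner subunits. It is best known for roles in repression and in keeping enhancers and promoters in check, and it reaches chromatin both through its partners and through its own histone-reading and DNA-binding domains. Chromatin immunoprecipitation sequencing with a CHD4 antibody gave 2 libraries, replicates 1 and 2. The same cells gave 2 libraries each for Brg1 (with a monoclonal antibody) and Snf2h, the ATPases of SWI/SNF and ISWI complexes, which serve here as background. Inputs (2 libraries) are not analysed here, so copy number, mappability and background signal could not be separated from binding. The labels do not tell whether the replicates are separate cultures, and their spread may be technical. They also describe, as the extraction, a DNase I digestion that belongs to another assay, so the immunoprecipitation steps are not known here.

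For each library a list of hotspots was deposited, intervals enriched for sequence tags. Replicate 1 of CHD4 lists 39797 hotspots covering 20.9 Mb, and replicate 2 lists 293135 covering 136 Mb. The lists were cut at different Z scores of enrichment, the lowest being 8.77 in replicate 1 and 2.00 in replicate 2. Hotspots of the lists were merged where they shared at least 1 bp, which gave 298496 regions. A replicated CHD4 site is such a region holding a hotspot of both libraries. There were 30521 of them, 10.2% of the merged CHD4 regions, beside 532751 regions that held a hotspot of any of the 6 lists of the series. The sites covered 32.0 Mb in all. Coordinates are on mm9, and the annotation and sequence at them were not used here, so no gene is named. No number of tags per library is known from these lists.

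The height of a hotspot is its maximum tag density. In each CHD4 list all heights are whole multiples of a fixed step (within 0.05 of a step), 0.347 in replicate 1 and 0.247 in replicate 2. Heights are given below in these steps, which count how finely a height was resolved. What a step stands for is not stated. The lowest hotspot reached 6 steps in replicate 1 and 8 steps in replicate 2, the median 40 and 14, and the highest 3345 and 2981. Steps are not compared between libraries as amounts.

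The share of hotspots in a replicated site rose with height in both lists. In replicate 1, 83.4% of hotspots lay in a replicated site (95% Wilson interval 83.0% to 83.7%), and in replicate 2, the longer list, 10.8% did (10.7% to 10.9%). These intervals, like those below, cover counting error only, and neighbouring hotspots are not independent. In the lowest 10% of replicate 1 by height, from 6 to 18 steps, 22.2% of hotspots were in a site. The share was 65.3% in the next 10% and 99.9% in the tallest 10%, from 84 steps up. In replicate 2 it was 0.819% in the lowest 10%, 20.5% between 23 and 34 steps and 67.2% in the tallest 10%, from 34 steps up. The last of these rises was the steepest between neighbouring classes in either library. Width rose with height as well, from a median of 307 bp in the lowest 10% to 795 bp in the tallest in replicate 1, and from 252 to 919 bp in replicate 2. A wider hotspot meets an overlap of 1 bp more easily, and the parts of height and width were not tested. Hotspots in sites had a median height of 45 steps in replicate 1 (quartiles 33 and 64) and of 42 in replicate 2 (26 and 62), against 19 and 13 steps for hotspots outside.

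**Figure D1:**
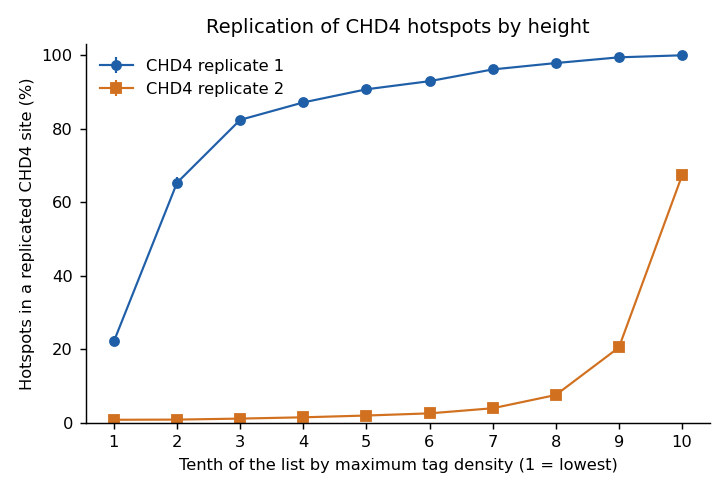
Share of the hotspots of each CHD4 library that lay in a replicated site (vertical axis, %), in 10 equal classes of that library's list ranked on maximum tag density (horizontal axis), with 95% Wilson intervals, mostly hidden by the points. Replicate 1 climbs from 22.2% to 99.9%, most of it over the lowest 3 classes, whereas replicate 2 stays at or below 7.56% over the lowest 8 and ends at 67.2%.

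A low height in replicate 2 did not keep a region from being a site: at 1754 sites (5.75%) the replicate 2 hotspot stood below the median of its whole list. At 35.6% of sites its Z score was below 9.49, the highest of the lowest Z scores of the 6 lists. Conversely, 10584 hotspots of replicate 2 with a Z score of at least 9.49 were in no site, and 65.2% of the 30396 hotspots past that value were in one. The edge of the rule was thinly filled. At 571 sites the libraries shared 100 bp or less, with median heights of 27 and 17 steps. Just outside, 454 hotspots of replicate 1 had a replicate 2 hotspot within 100 bp without touching it, also with a median of 27 steps. Over the 6620 hotspots of replicate 1 outside sites, the nearest hotspot of replicate 2 was a median of 2063 bp away.

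Most sites were simple. Exactly 1 hotspot of each library made up 27269 sites (89.3%). In the other 3252 sites, splitting was mostly in replicate 1: 2102 sites held several of its hotspots under 1 hotspot of replicate 2, 865 the reverse, and 285 several of both. Up to 6 hotspots of replicate 1 and up to 4 of replicate 2 fell in 1 site. Width went with this make-up. Sites of 1 and 1 had a median width of 836 bp, those of 2 replicate 1 hotspots and 1 replicate 2 hotspot 1769 bp, and the 176 sites of 3 and 1 a median of 2839.5 bp.

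Over all sites the median width was 897 bp, the quartiles 647 and 1291 bp, and the range 254 to 6898 bp. By width, 7.32% of sites were at most 500 bp, 50.6% above 500 and up to 1000 bp, 35.6% above 1000 and up to 2000 bp, and 6.4% wider. The 1954 sites above 2000 bp held 15.3% of the covered length. A site spans every hotspot merged into it, so it is wider than its parts by construction: hotspots of each whole list had a median of 485 bp in replicate 1 and 397 bp in replicate 2. At the sites of 1 and 1, the replicate 1 hotspot had a median of 521 bp and that of replicate 2 a median of 795 bp. The replicate 2 hotspot was the wider at 84.3% of them, by a median factor of 1.5 (quartiles 1.13 and 2.12), and enclosed the replicate 1 hotspot at 56.8%.

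Across these sites the extra length of replicate 2 leaned to neither coordinate direction. Replicate 2 hotspots reached a median of 110 bp further at the lower coordinate and 106 bp further at the higher one. These medians do not show how the length was shared at a single site. At 37.6% of the sites neither hotspot enclosed the other. The midpoints of the paired hotspots lay a median of 100.5 bp apart, and 95% of pairs were within 429.5 bp. The replicate 2 midpoint was at the higher coordinate in 49.6% of pairs. Across these 27269 sites Spearman's correlation between libraries was 0.427 for width and 0.554 for Z score. Correlations across sites are descriptions, since sites share libraries and neighbours.

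The widest site lay on chromosome 18, 6898 bp long, with 5 hotspots of replicate 1 under 1 of replicate 2, and rose only to 62 and 67 steps. Chromosome 8 held another pair of the 5 widest. At chr8:129371225-129377540 the site was 6316 bp wide and reached 153 and 141 steps, and at chr8:123058754-123064504 it was 5751 bp wide and reached 61 and 83 steps. At chr10:36856173-36862079 there were 5 hotspots of replicate 1 and 2 of replicate 2 over 5907 bp, at 51 and 45 steps. In replicate 1 these last 2 and the one on chromosome 18 stood below the 84 steps where its tallest 10% begin. In replicate 2 all were above the 34 steps of its own tallest 10%. The remaining one, chr17:39979738-39985836, was 6099 bp wide and the tallest site of all.

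That site stood at 3345 steps in replicate 1 and 2981 in replicate 2, the highest hotspot of both lists. Next came chr8:20019637-20020624, at 1226 and 1135 steps, and chr11:108872711-108873714, at 1057 and 1176. The remaining members of the tallest 5 were chr6:3151161-3151804, at 632 and 517 steps, and chr8:19784321-19785288, at 618 and 776. None of these 5 had another CHD4 site within 12500 bp, and each had hotspots in 3 or 4 of the 4 lists of the other antibodies. Over all CHD4 sites, 38.7% had hotspots in 3 of those lists and 33.8% in 4, so these counts are common ones. Whether the 5 lie in repeated or amplified sequence was not tested.

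Height ordered the sites alike in both libraries. Spearman's correlation of maximum density was 0.728 across the 30521 sites, and the percentile among sites differed between libraries by a median of 12.6 points. Of the 3045 sites in the tallest 10% of replicate 1, 59.8% were also in the tallest 10% of replicate 2, which made 1821 sites tall in both. Only 72 sites of the tallest 10% in replicate 1 fell below the median of sites in replicate 2, and 64 the other way round. Within the whole lists, the largest difference of percentile in each direction was at the following pair of sites. At chr1:146190342-146191008 the percentile within the whole list was 75.97 in replicate 1 and 9.04 in replicate 2, or 60 and 9 steps. At chr1:175552371-175553225 it was 2.52 and 93.1, or 11 and 42 steps. These percentiles depend on list length and threshold: the median replicate 2 hotspot in a site also stood at percentile 93.1 and 42 steps of its list, while that of replicate 1 stood at 57.8 of its own.

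Shape was described by the ratio of maximum to average tag density in a hotspot. The ratio has no unit, and a high value marks a sharp summit over low flanks, a value near 1 a plateau. In sites the median ratio was 4.27 in replicate 1 (quartiles 3.59 and 4.97) and 4.91 in replicate 2 (4.05 and 5.59), a mean of 4.59 ± 0.451 (SD, n = 2 libraries). Outside sites it was 3.66 and 3.69. The average and the maximum were not computed alike, since the average exceeded the maximum at 2 hotspots of replicate 1 and 42 of replicate 2. How they differ is not known here. Hotspots at the smallest width, 252 bp, made up 5.26% and 1.88% of those in sites, and some had an average near 0, which inflates the ratio.

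The ratio was lowest at middling widths. In replicate 1 the median fell from 5.47 at 252 bp to 3.68 at 401 to 500 bp and then rose to 6.15 above 2000 bp. In replicate 2 it went from 5.39 to 3.40 and up to 6.33 over the same widths. The libraries differed in width more than in shape at a given width. Among the 3649 sites of 1 and 1 whose hotspots agreed in width within 10%, the median ratio was 3.99 and 4.19, and replicate 2 had the higher ratio at 56.9%, against 69.2% of all sites of 1 and 1. Inside a width class, hotspots in sites were taller than the others, but not always sharper. At 301 to 400 bp the ratio in sites was 4.04 and 3.58, against 3.36 and 3.11 outside. At 501 to 600 bp in replicate 2 it was 3.78 in sites and 3.92 outside, at heights of 29 and 19 steps.

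**Figure D2:**
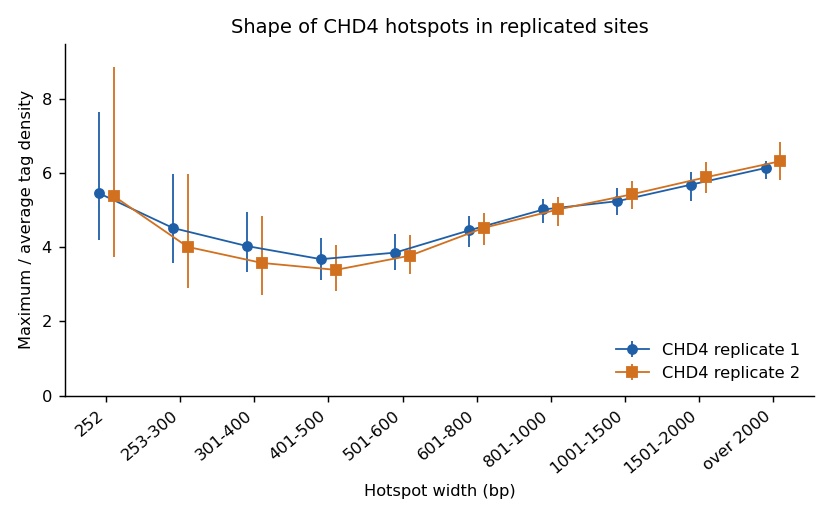
Median ratio of maximum to average tag density (vertical axis, no unit) of hotspots in replicated CHD4 sites, by hotspot width in bp (horizontal axis), with quartiles as bars and 1 line per CHD4 library. Both lines dip at 401 to 500 bp, to 3.68 and 3.40, and climb to 6.15 and 6.33 for the widest hotspots.

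At the level of single sites shape was less repeatable than height. Spearman's correlation of the ratio between libraries was 0.368 over the sites of 1 and 1. It was 0.419 over the 25442 of them where both hotspots were above the smallest width. Over the 2983 where both were 400 to 600 bp wide it was 0.312. Of the 5 sharpest sites of 1 and 1, all had a hotspot of 252 to 263 bp in at least 1 library and heights of 11 to 35 steps. At chr1:81983905-81984260 the ratio was 15.4 and 9.44. The 5 flattest were 349 to 466 bp wide. At chr6:114411485-114411844 the ratio was 1.49 and 1.35 at 83 and 71 steps, and no list of another antibody had a hotspot there. At chr5:100777572-100777920, also without a hotspot of another antibody, it was 1.48 and 0.955 at 23 and 13 steps. Flat sites were therefore found at tall as well as at low heights. The rest of the 5 flattest sites had hotspots in 3 or 4 of the lists of the other antibodies.

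The question whether CHD4 hotspots differ in form from those of the other remodelers was put to the 6 libraries, taking the 32310 tallest hotspots of each list, the length of the shortest. The median ratio was 4.27 and 5.01 in the CHD4 libraries, 3.58 and 4.48 in the Brg1 libraries and 3.38 and 4.05 in the Snf2h libraries. CHD4 was higher by 0.763 on average (4.64 ± 0.523, SD, n = 2, against 3.87 ± 0.494, SD, n = 4), but Brg1 replicate 2 lay above CHD4 replicate 1. Among libraries of the same replicate number CHD4 was the highest in both cases. The exact two-sided permutation p over the 15 ways to choose 2 of 6 libraries was 0.2, and 0.6 after Benjamini-Hochberg adjustment over the 3 measures tested. The smallest p that 15 choices allow is 0.0667, so 0.05 could not be reached. Without CHD4 replicate 2 the difference was 0.393.

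Within a band of widths the groups parted, though widths inside the band still differed. Among those hotspots, the ones of 300 to 600 bp had a median ratio of 3.83 and 3.74 in the CHD4 libraries, against 3.01 and 2.92 for Brg1 and 3.15 and 3.33 for Snf2h. Both CHD4 libraries exceeded all 4 others, by 0.681 on average. The exact permutation p was 0.0667, the smallest possible, and was not adjusted. Over the whole lists, at all widths, the difference was 0.667 (exact permutation p = 0.267). There CHD4 replicate 2, at 3.81, lay below Brg1 replicate 2, at 3.88. In replicated sites of each antibody, over all widths, the CHD4 libraries were not above all 4 others. The median ratio there was 4.27 and 4.91 for CHD4, 3.17 and 4.33 for Brg1, and 3.55 and 3.81 for Snf2h. In the width classes below, CHD4 was above the other 4, whose own order changed with width. A hotspot can be in both comparisons, so they are not independent. At 401 to 600 bp the median ratio was 3.78 and 3.63 for CHD4, 3.05 and 3.38 for Brg1, and 3.29 and 3.03 for Snf2h. At 601 to 1000 bp it was 4.61 and 4.73 for CHD4 and between 4.08 and 4.19 in the 4 other libraries. The lists differ in threshold and in density step, and the part of these in the difference was not tested. Hotspots of 300 to 600 bp stood at a median of 41 and 37 steps for CHD4, 61 and 95 for Brg1, and 21 and 76 for Snf2h.

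**Figure D3:**
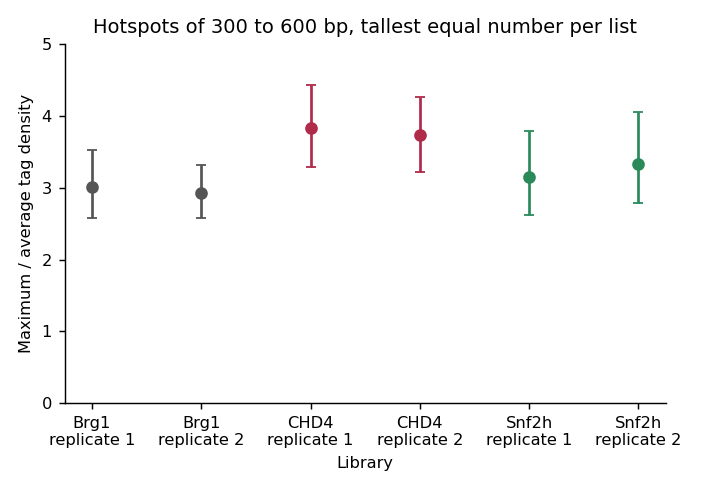
Median ratio of maximum to average tag density (vertical axis, no unit; bars give quartiles) in each of the 6 libraries (horizontal axis), for hotspots of 300 to 600 bp among the 32310 tallest of each list. The medians of the CHD4 libraries, 3.83 and 3.74, lie above the other 4, which run from 2.92 to 3.33, while the quartile ranges of hotspots overlap.

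Width did not differ beyond the spread between libraries. Over the 32310 tallest hotspots the median was 532 and 886 bp for CHD4, 586 and 929 bp for Brg1, and 402 and 613 bp for Snf2h. The mean difference of 76.5 bp was smaller than the SD between the CHD4 libraries, 250.3 bp (exact two-sided permutation p = 0.867, adjusted 0.867). In all 3 antibodies replicate 2 had the wider hotspots.

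Many CHD4 sites had another nearby. The median gap from the end of a site to the start of the next on its chromosome was 24.3 kb, with quartiles of 5.90 and 72.7 kb. The mean gap was 83.2 kb, more than 3 times the median, because long empty stretches pulled it up: 324 gaps above 1 Mb held 23.3% of the summed gap length. A neighbouring site was within 1 kb for 17.5% of sites, within 5 kb for 39.4%, within 12500 bp for 57.2% (95% Wilson interval 56.7% to 57.8%) and within 50 kb for 85.9%. On both sides a neighbour was within 12500 bp for 15.7%. Spacing depends on how many regions are counted: 60.05% of the hotspots of replicate 1 alone and 94.5% of those of replicate 2 alone had a neighbour within 12500 bp.

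Chaining sites whose gaps were at most 12500 bp left 13048 sites alone and put 17473 in 6345 clusters. Of these, 3767 clusters were pairs, 2578 held 3 sites or more with 32.6% of all sites, and 549 held 5 or more with 10.7%. With replicate 1 alone 3651 clusters held 3 or more, and with replicate 2 alone 34148 did. Clusters of 3 or more spanned a median of 14.6 kb, of which the sites covered 27.0%.

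Clustered sites were taller than lone ones in both libraries. Lone sites had a median of 39 steps in replicate 1 and 36 in replicate 2. Pairs had 46 and 43, clusters of 3 had 50 and 47, and clusters of 5 had 59 and 56. From lone sites to clusters of 5 or more, the median percentile among sites went from 37.3 to 71.9 in replicate 1 and from 39.4 to 71.1 in replicate 2. Only 3.47% of lone sites were in the tallest 10% of both libraries, against 13.6% of those in clusters of 5 or more. Read the other way, a neighbour was within 12500 bp for 28.8% of the lowest 10% of sites by height and for 74.5% of the tallest. The median distance to the nearest site shrank from 40.6 kb to 3.99 kb over the same range. Widths rose with height too, from a median of 551 bp to 1349 bp, so taller sites also take up more room.

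**Figure D4:**
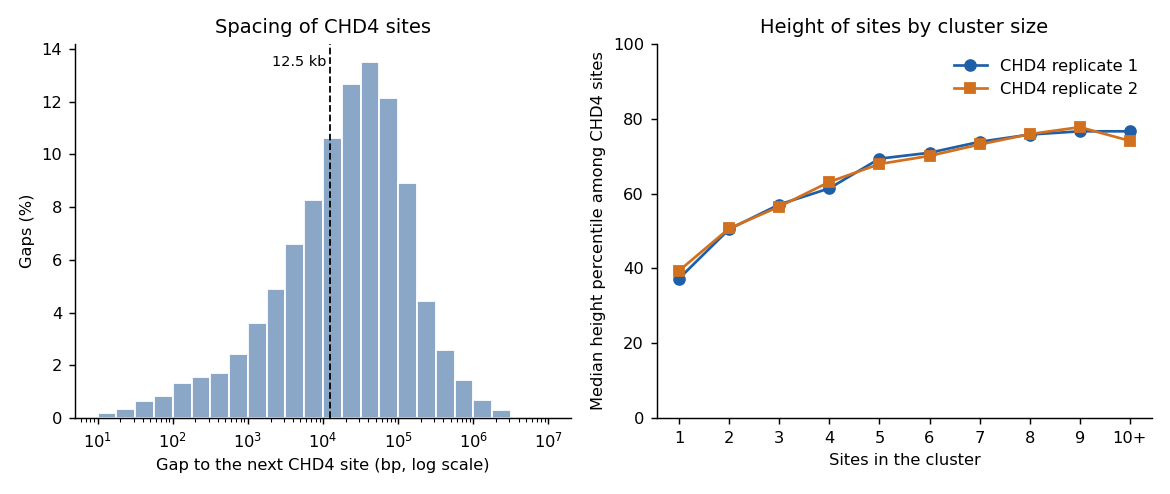
Left, gaps between neighbouring CHD4 sites (horizontal axis, bp, log scale; gaps under 10 bp are not drawn) as a share of all gaps (vertical axis, %), with a dashed line at 12500 bp. Right, median height percentile among CHD4 sites (vertical axis) by number of sites in the cluster (horizontal axis; 10+ is 10 or more) in each CHD4 library, climbing from 37.3 and 39.4 for lone sites to above 70 in clusters of 6 or more.

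The cluster with the most sites held 17 over 84.2 kb at chr11:117793444-117877639. Its lowest site stood at 60 steps in replicate 1 and 56 in replicate 2, its tallest at 163 and 136, and 7 of the 17 were in the tallest 10% of both. At chr9:102616029-102666678 there were 14 sites over 50.6 kb, with medians of 64 and 65 steps. Another 14 lay over 53.2 kb at chr13:23492476-23545668, where the range ran from 45 to 212 steps in replicate 1 and from 23 to 205 in replicate 2. At chr11:81809704-81861966 there were 13 over 52.3 kb, and at chr4:88574153-88606270 there were 12 within 32.1 kb, the shortest span of the 5. No site of the first cluster stood below 56 steps in either library.

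At the other end, the most isolated site, chr15:15626155-15626683, had no CHD4 site for 2.87 Mb below it and 3.14 Mb above it. It stood at 16 and 9 steps. The second, chr1:104524470-104525114, with 2.55 Mb and 3.03 Mb around it, reached 144 and 78 steps, at percentiles 98.7 and 98.5 of the lists. The other 3 of the 5 most isolated sites lay between 13 and 25 steps. At 4 of these 5 the height was thus 25 steps or less in both libraries.

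The order of the antibodies in spacing depended on how many sites were taken. Over all replicated sites a neighbour was within 12500 bp for 57.2% of CHD4 sites, 64.2% of the 51805 Brg1 sites and 36.8% of the 18232 Snf2h sites. With equal numbers CHD4 and Brg1 changed places. Among the 18232 sites of each antibody with the highest mean percentile of height, a neighbour was within 12500 bp for 56.0% of CHD4 sites (55.3% to 56.7%), 53.3% of Brg1 sites (52.6% to 54.0%) and 36.8% of Snf2h sites (36.1% to 37.5%). These were all the Snf2h sites but only the taller sites of CHD4 and Brg1, so height was not matched. Their median width was 1061 bp for CHD4, 1099.5 bp for Brg1 and 650 bp for Snf2h. Clusters of 3 or more numbered 1494, 1406 and 654 in the same order. Over libraries the difference did not pass a test. Of the 32310 tallest hotspots, 64.8% and 68.5% had a neighbour within 12500 bp in the CHD4 libraries, 65.2% and 64.4% in the Brg1 libraries, and 39.8% and 65.2% in the Snf2h libraries. CHD4 exceeded the others by 8.01 points (exact two-sided permutation p = 0.533, adjusted 0.8), and by 1.71 points without Snf2h replicate 1.

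On the autosomes there were 29740 CHD4 sites, 97.4% of all, or 12.3 per Mb. They covered 1.29% of the autosomal span. Chromosome 11 was the densest at 18.6 sites per Mb, 1.51 times the autosomal mean, and chromosome 14 the sparsest at 9.16, or 0.743 times the mean. Chromosomes 19, 15, 17 and 9 followed chromosome 11, at 1.26, 1.17, 1.12 and 1.12 times the mean. Chromosomes 12 and 18 were near the low end at 0.778 and 0.822. This spread was not particular to CHD4. Sites of Brg1 and Snf2h were also densest on chromosome 11, at 1.46 and 1.54 times their own means. They were sparsest on chromosome 14 too, at 0.754 and 0.679. For CHD4 sites the SD over the 19 autosomes was 0.175 of the mean.

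The sites followed replicate 1 in this, which the rule for sites favours: 83.4% of replicate 1 hotspots were in sites, against 10.8% of those of replicate 2. Hotspots of replicate 1 stood at 1.43 times their autosomal mean on chromosome 11 and at 0.808 on chromosome 14. The long list of replicate 2 was nearly even, at 1.03 on chromosome 11, with a range from 0.828 on chromosome 7 to 1.06 on chromosome 3. Across the 19 autosomes Spearman's correlation between the lists was 0.309, a description of chromosomes that share libraries. Among the taller 50% of both lists, however, chromosome 11 rose to 1.88 times the mean of sites. The share of hotspots in sites differed accordingly: on chromosome 11 it was 88.4% in replicate 1 and 15.8% in replicate 2, on chromosome 14 77.0% and 9.60%.

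**Figure D5:**
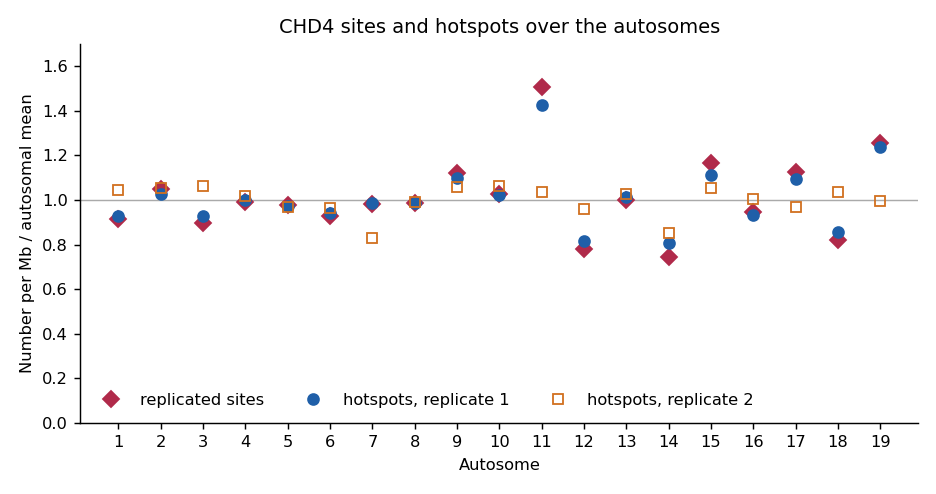
Number per Mb relative to the autosomal mean (vertical axis) on each of the 19 autosomes (horizontal axis) for replicated CHD4 sites (diamonds), hotspots of replicate 1 (filled circles) and hotspots of replicate 2 (open squares). Sites follow replicate 1, with 1.51 and 1.43 on chromosome 11, while replicate 2 stays between 0.828 and 1.06. The rule for sites favours this, since most hotspots of replicate 1 are in sites and few of replicate 2 are.

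Height also differed between chromosomes, and in the same way in both libraries. The share of sites in the tallest 10% of both libraries was 5.97% over all sites. It was 9.86% on chromosome 6, 9.46% on chromosome 16, 9.43% on chromosome 11 and 9.28% on chromosome 15, but 2.08% on chromosome 14, 2.54% on chromosome 7 and 2.92% on chromosome 18. Across the 19 autosomes, the median percentile of height gave a Spearman correlation of 0.958 between the CHD4 libraries. Between sites per Mb and this median percentile the correlation was 0.573 in replicate 1 and 0.547 in replicate 2. Density and height did not always go together: chromosomes 6 and 16 were below the mean in sites per Mb, at 0.927 and 0.946. For the other antibodies, each ranked on its own sites, these chromosomes lay on the same side of the share over all sites. On chromosomes 6, 11, 15 and 16 the share was 8.75%, 8.46%, 10.6% and 7.90% for Brg1 and 6.31%, 10.04%, 8.38% and 6.59% for Snf2h, against 6.68% and 5.58% over all their sites. On chromosomes 7, 14 and 18 it was 4.40%, 3.40% and 4.49% for Brg1 and 2.84%, 3.98% and 2.99% for Snf2h. The copy number of these chromosomes in the line was not analysed here, and its part in these shares was not tested.

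Other properties of the sites varied less between autosomes. The median width ran from 866.5 bp on chromosome 15 to 942 bp on chromosome 18. The median ratio of maximum to average density ran from 4.20 to 4.31 in replicate 1 and from 4.75 to 5.03 in replicate 2. A neighbour within 12500 bp was found for 52.9% of sites on chromosome 3 and for 65.0% on chromosome 11. Spearman's correlation between density and this share was 0.779 over the 19 autosomes. Spacing depends on how many sites are counted, so density and this share are tied in part by construction.

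Within chromosomes the number of sites varied from bin to bin. Of 2387 whole 1 Mb bins on the autosomes, 223 (9.34%) held no site, the median bin held 10 (quartiles 3 and 19) and the fullest held 61. The densest 10% of bins, with 28 sites or more each, held 27.7% of the sites, and the emptier 50% of bins held 15.2%. The fullest bin was chr2:167000001-168000000, followed by chr1:92000001-93000000 with 52 and chr4:134000001-135000000 with 51. These bins were chosen after their values were seen. Chromosome 11 supplied 33 of the 238 densest bins, 28.2% of its own bins, and chromosome 14 supplied 6, 5.00% of its own. Even so, 1 of the 10 fullest bins was on chromosome 14, at chr14:70000001-71000000 with 48 sites. Bins with no site made up 20.5% of chromosome 12 and 17.6% of chromosome 7, but 1.72% of chromosome 13.

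The lists of the other antibodies were used as background at the CHD4 sites. No hotspot of the 4 other lists was found at 793 sites (2.60%, 95% Wilson interval 2.43% to 2.78%), and a hotspot of all 4 at 10304 (33.8%, 33.2% to 34.3%). The lists are of unequal length, with 115361 and 260036 hotspots for Brg1 and 32310 and 79969 for Snf2h. A hotspot lay at 78.1% and 94.3% of sites in the Brg1 libraries and at 43.7% and 78.4% in the Snf2h libraries. The same shares over all merged CHD4 regions are not given here, so these are not read as particular to the sites. Sites without any other hotspot were low and narrow, with a median of 26 and 17 steps and 531 bp. Those with all 4 had 58 and 55 steps and 1172 bp. A neighbouring CHD4 site was within 12500 bp for 38.6% of the former and 57.3% of the latter. Wider sites have more room for an overlap, and width was not matched here. In the lowest 10% of sites by height 14.0% had no other hotspot, and in the tallest 0.131%.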

How the data were processed

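Hotspot lists of 6 immunoprecipitation libraries were used as deposited, with groups and replicate numbers from the sample titles. The submitters' processing notes name CASAVA 1.6, without its role, and the mm9 build. The program that found the hotspots, its threshold and its use of inputs are unknown (not given in the sources used here). Maximum and average tag density are a signal of unstated scaling, the Z score is a score and each hotspot has a p-value, per the file headers. All 3 were made by the authors in each library separately and serve here only to rank or filter hotspots and for ratios within a hotspot. The depth of each library is unknown.

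Intervals were read as closed. Sites, gaps (bases between edges), chains, ranks and 1 Mb bins were computed with pandas 2.3.3, scipy 1.17.1 and numpy 2.4.6 under Python 3.11.15 (matplotlib 3.10.9 for plots). The distance for neighbours and chains was 12.5 kb. Chromosome spans run from the lowest start to the highest end in the 6 lists. Libraries were compared by exact permutation. Interval code was tested on simulated data. Shares carry 95% Wilson intervals. Regions named are the 5 tallest, widest, sharpest, flattest, most isolated and most discordant sites in each direction and the 5 clusters of most sites, of which some are printed in full. The members, measures and rules were chosen with earlier results of these data known. Alternatives were stricter overlap, taller, equal or Z-filtered lists, leaving out a library or the tallest 1%, other distances and a replicate block. Annotation and sequence of mm9 were not used here.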

Additional observations from a re-analysis of the deposited data

How the results depend on the processing

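The number of sites fell to 18126 with the taller 50% of each list and to 18784 at a common Z score minimum of 9.49, and with 1 library standing alone it ran from 39776 to 292957. Under the same first pair of settings and with equal list lengths the median width was 1037, 1090 and 1034 bp (397 to 485 bp from 1 library). Clusters of 3 or more numbered 1456 and 1186 in the taller lists and at the common Z score, 1346 within 5 kb, and 3651 to 34148 from 1 library. The share near a neighbour ran from 60.05% to 94.5%, the median density ratio from 3.81 to 4.18 and the density on the densest autosome from 1.06 (chromosome 3, in replicate 2) to 1.43 times the mean from 1 library. That density was 1.88 in the taller lists. With both libraries the share near a neighbour fell from 57.2% to 47.9% at the common Z score and to 52.5% without the tallest 1%. With the distance changed it was 39.4% within 5 kb and 72.6% within 25 kb. The rank agreement of heights was 0.718 with 50% overlap, 0.609 in the taller lists, 0.642 with equal lengths, 0.713 at the common Z score and 0.655 without the tallest 1%. The difference in hotspot width between CHD4 and the other libraries changed sign, running from -100.5 bp without CHD4 replicate 2, through -0.333 bp without Snf2h replicate 1, to 253.5 bp without CHD4 replicate 1. For the density ratio, leaving out 1 library gave differences of 0.393 to 1.13, and for the share near a neighbour 1.71 to 10.2 points. With libraries compared by replicate number (replicate block) the differences of 0.763, 76.5 bp and 8.01 points were unchanged by construction, with exact permutation p of 0.111, 0.778 and 0.556. The block allows no p below 0.111, so 0.05 could not be reached, and the density ratio was at that limit. No label says that a number pairs libraries. The cause of these shifts was not tested, beyond fewer hotspots entering under stricter lists. Alternatives on hotspots of the smallest width and on sites of 1 and 1, and all those for the share near a neighbour between libraries, were chosen after seeing the data.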
